A study of Homo sapiens with 3 samples.

Results

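Long non-coding RNA (lncRNA) genes give rise to transcripts that do not code for protein, and many of their promoters lie beside or inside protein-coding genes. The summits described here are places where the transcription factor SP1 was called at the end of a lncRNA gene and away from the ends of all protein-coding genes. A summit was included when it lay within 1000 bases of either end of a RefSeq (GRCh38) lncRNA gene span and more than 1000 bases from every end of a protein-coding gene span. This rule was met by 253 of 5570 SP1 summits, or 4.54% (95% Wilson interval 4.03 to 5.12).

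The cells were H1299, an established human line labelled as lung adenocarcinoma, and no treatment is named. Binding was profiled by CUT&RUN, which frees DNA around an antibody-bound protein with a tethered nuclease and sequences it. There was 1 library with an antibody against SP1, 1 against H3K27ac, the histone acetylation found at active enhancers and promoters, and 1 with control IgG, which was not analysed here. With 1 library per antibody no value has a replicate and no p-value was computed, and all intervals cover counting error only. Each summit has a score from the authors' peak calling, a −log10 probability for which the sources do not say whether p or q is meant. The sequencing depth is unknown.

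SP1 is a zinc finger protein that binds GC boxes, short G- and C-rich DNA elements common in promoters that lack a TATA box. It helps to recruit the general transcription machinery, and it is best known from promoters of protein-coding genes in CpG islands. LncRNA genes are named by their place: the ending -AS marks a gene antisense to the gene in its name, -DT one transcribed divergently from it, LINC an intergenic one, and LOC a gene without a given name.

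The 5 promoters below show the kinds of sequence beside these summits. Each runs from 250 bases before to 50 bases after the gene's start, is read 5′ to 3′ on the gene's strand and comes from RefSeq (GRCh38.p14). Capitals mark GC boxes, meaning GGGCGG or its reverse complement, except in MIATNB. That promoter has no GC box, and capitals there mark CCGGAA, the core of ETS factor motifs, searched on both strands. LOC105372468 at chr19:56314756-56315055 (plus strand) and LOC105378691 at chr1:45303697-45303996 (minus strand) are shown as the promoters with the highest-scoring summits inside the printed stretch. CRNDE at chr16:54928837-54929136 (minus strand) and VPS9D1-AS1 at chr16:89711606-89711905 (plus strand) are lncRNA genes known from cancer, and the VPS9D1-AS1 summit lay just downstream of the printed stretch. MIATNB, named for its neighbour MIAT, is at chr22:26672593-26672892 (plus strand). It is shown as a promoter with a summit but without GGGCGG on either strand. Sequences that differ from GGGCGG by a base were not searched for.
LOC105372468: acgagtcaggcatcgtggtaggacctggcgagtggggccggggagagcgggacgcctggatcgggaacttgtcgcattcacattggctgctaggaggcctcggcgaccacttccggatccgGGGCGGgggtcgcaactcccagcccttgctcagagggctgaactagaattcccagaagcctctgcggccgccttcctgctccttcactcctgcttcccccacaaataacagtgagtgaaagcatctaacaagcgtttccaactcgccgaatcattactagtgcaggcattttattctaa
LOC105378691: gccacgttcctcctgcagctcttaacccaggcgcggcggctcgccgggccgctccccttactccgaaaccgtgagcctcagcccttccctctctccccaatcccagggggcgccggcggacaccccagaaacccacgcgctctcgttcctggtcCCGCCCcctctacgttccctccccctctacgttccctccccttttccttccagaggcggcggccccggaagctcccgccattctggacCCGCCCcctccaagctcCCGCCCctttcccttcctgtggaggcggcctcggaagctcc
CRNDE: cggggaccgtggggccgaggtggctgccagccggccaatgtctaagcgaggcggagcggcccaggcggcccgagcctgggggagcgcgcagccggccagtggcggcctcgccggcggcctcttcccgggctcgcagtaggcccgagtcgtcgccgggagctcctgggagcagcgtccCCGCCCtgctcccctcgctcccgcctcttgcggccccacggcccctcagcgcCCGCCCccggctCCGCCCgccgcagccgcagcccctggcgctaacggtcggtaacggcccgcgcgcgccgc
VPS9D1-AS1: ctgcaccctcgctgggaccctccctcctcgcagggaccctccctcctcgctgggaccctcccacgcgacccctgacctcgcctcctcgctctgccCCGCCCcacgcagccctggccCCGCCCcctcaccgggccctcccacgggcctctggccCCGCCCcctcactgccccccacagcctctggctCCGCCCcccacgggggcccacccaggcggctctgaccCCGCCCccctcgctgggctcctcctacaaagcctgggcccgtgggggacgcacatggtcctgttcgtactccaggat
MIATNB: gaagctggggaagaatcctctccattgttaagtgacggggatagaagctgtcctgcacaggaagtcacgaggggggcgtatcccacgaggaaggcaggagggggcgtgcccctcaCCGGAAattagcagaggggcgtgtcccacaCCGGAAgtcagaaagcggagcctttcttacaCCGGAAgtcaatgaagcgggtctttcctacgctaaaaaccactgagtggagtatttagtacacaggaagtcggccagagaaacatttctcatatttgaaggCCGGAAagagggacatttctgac

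The 253 summits lay at 259 of 18303 lncRNA genes, so that 1.42% of these genes were called. Counting any SP1 summit at an end, also those shared with a protein-coding gene end, 718 lncRNA genes (3.92%) were called. Among 20037 protein-coding genes the share was 13.7%. Of the 253 summits, 236 had 1 lncRNA gene at hand and 17 had 2 such genes. Most genes had a single summit, and 10 genes had 2 or more.

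The stretches that the rule admits were richer in SP1 summits than the rest of the genome and far poorer than the stretches around protein-coding ends. The rule covered 63.4 Mb, or 2.05% of chromosome length, and held 3.99 SP1 summits per Mb (exact Poisson 95% interval 3.51 to 4.51). Stretches around protein-coding ends without a lncRNA end held 29.5 per Mb (28.2 to 30.8). Those with ends of both kinds held 78.4 (71.6 to 85.6), and positions near neither held 0.969 (0.934 to 1.01). The lncRNA-only stretches thus stood 4.12-fold above positions near neither kind of end and 2.21-fold above all positions. The fold over all positions depended on the window, with 3.84 at 500 bases and 1.33 at 2000 bases. H3K27ac summits showed a flatter pattern in the same stretches, with 1.66 per Mb at lncRNA-only ends (1.35 to 2.005) and 0.999 per Mb near neither (0.963 to 1.04).

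Scores at lncRNA-only ends lay between those at protein-coding ends and those elsewhere. The 253 summits had scores from 3.45 to 64.0, with a median of 6.97 (quartiles 5.21 and 9.45). Summits at protein-coding ends only had a median of 8.07 (6.07 and 11.8), and the 496 summits at ends of both kinds had 8.44 (6.40 and 11.4). The 2860 summits near neither had 5.21 (4.34 and 6.45). A score over 10 was reached by 55 of the 253, or 21.7% (17.1 to 27.2), against 20.4% of all SP1 summits. The share was 34.5% at protein-coding ends only (32.5 to 36.7) and 8.11% near neither (7.17 to 9.17).

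**Figure D1:**
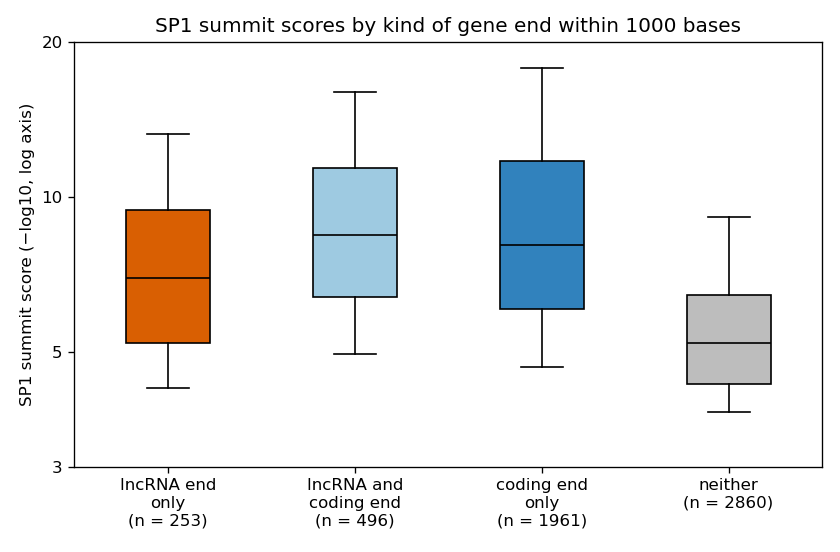
Scores of SP1 summits (y axis, −log10 of the peak caller's p- or q-value, log axis) by the kind of gene end within 1000 bases (x axis). Boxes span the quartiles with the median as a line, and whiskers run to the 10th and 90th percentiles. The lncRNA-only summits have a median of 6.97, below the 8.07 at protein-coding ends only and above the 5.21 near neither.

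When all 5570 summits were put into 10 groups of 557 by score, 2.33% to 6.82% of each group were lncRNA-only. The share was 2.33% to 3.95% in the 4 lowest-scoring groups, 5.03% to 6.82% in the next 5 and 3.77% in the highest-scoring one. Among all summits above the median score it was 5.46%. For protein-coding ends only, it was 12.2% in the lowest and 63.6% in the highest group. Among the 100 highest SP1 summits 4 were lncRNA-only, near the 4.54% of the whole list.

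RefSeq promoter entries gave the strand of the nearest lncRNA gene for 182 of the 253 summits, and these lay mostly at gene starts. The rule did not use strand, and every gene has 1 start and 1 other end. Of the 182, 148 were nearest to a start and 34 to the other end, so that 81.3% were at starts (75 to 86.3). At protein-coding ends only, 95.6% of 1656 summits with a known strand were at starts (94.5 to 96.5). H3K27ac summits that met the same rule were split evenly, with 37 of 70 at starts, or 52.9% (41.3 to 64.1).

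Median scores were higher at starts than at other ends, while the intervals of the shares over 10 overlapped. The 148 summits at starts had a median of 7.78 (quartiles 5.89 and 10.4), and the 34 at other ends had 5.88 (4.61 and 7.05). A score over 10 was reached by 40 of the 148 at starts, or 27% (20.5 to 34.7), against 3 of the 34 at other ends, or 8.82% (3.05 to 23). The 71 summits without a known strand lay between these, with a median of 6.13.

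Around lncRNA starts, summits were sparse in the 100 bases just upstream. The median distance was 295 bases (quartiles 154 and 518), with 69 summits upstream and 79 at or downstream of the start. There lay 4 of the 148, against 15 in the stretch from 300 to 200 bases upstream and 22 in the stretch from 100 to 200 bases downstream. Protein-coding starts had the same shape with sharper sides: 34 of 1583 summits lay just upstream, 260 from 300 to 200 bases upstream and 301 from 100 to 200 bases downstream. More of the lncRNA summits were distant from the start. Over 300 bases away lay 49.3% of them (41.4 to 57.3), against 38% at protein-coding starts (35.6 to 40.4).

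**Figure D2:**
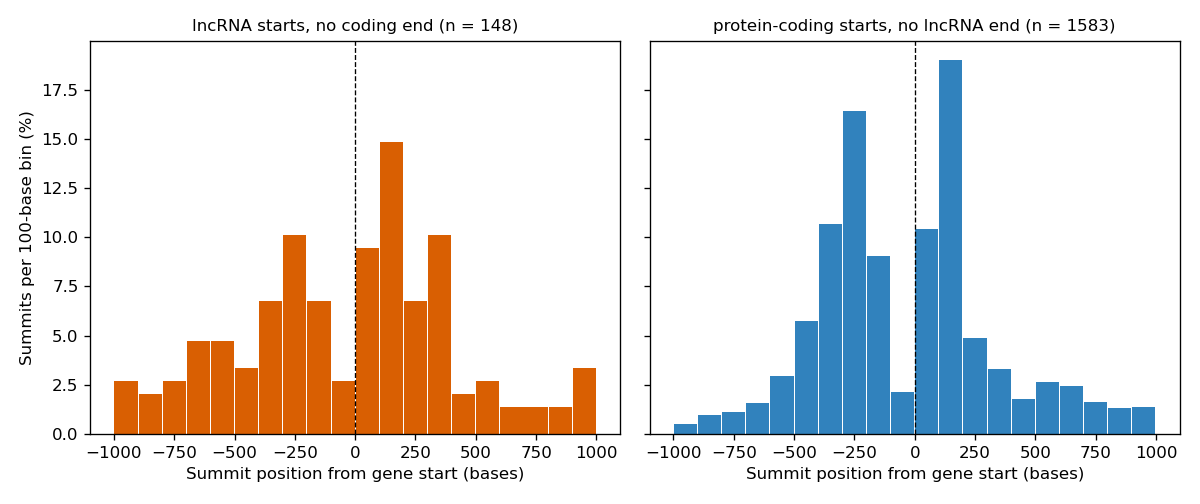
Position of SP1 summits relative to the gene start (x axis, bases, negative upstream) as the percentage of summits in each bin of 100 bases (y axis). Left, 148 summits at lncRNA starts without a protein-coding end; right, 1583 summits at protein-coding starts without a lncRNA end. In both panels the bin just upstream of the start is low, with 4 lncRNA and 34 protein-coding summits, and the bins on either side are high.

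GC boxes were frequent in the promoters of these genes. Each of 11462 lncRNA genes with a promoter entry was represented by its outermost start. GGGCGG on either strand was found in 103 of 155 promoters with a lncRNA-only summit within 1000 bases of that start, or 66.5% (58.7 to 73.4), against 25.4% of all lncRNA promoters and 44.5% of all promoters in the table. At least 2 copies were found in 45.8%, against 12.7% of all lncRNA promoters. Promoters of protein-coding genes with an SP1 summit within 1000 bases had the element in 80.3% of 2216 cases (78.6 to 81.9). The printed promoters hold 1 copy in LOC105372468, 3 in LOC105378691, 3 in CRNDE and 5 in VPS9D1-AS1.

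The promoters with summits were also rich in G and C. Their median G and C content was 64.0%, against 50% over all lncRNA promoters, and G- and C-rich sequence holds GC boxes more often. Within bands of like composition the difference was smaller. At 60% to 70%, 46 of 58 promoters with a summit had a GC box, or 79.3% (67.2 to 87.7), against 55.7% of 1689 lncRNA promoters with no SP1 summit (53.3 to 58.0). At 50% to 60% it was found in 41.4% of promoters with a summit (25.5 to 59.3) and in 510 of 2555 without one (an interval of 18.5% to 21.6%). For promoters with and without a summit, the shares at 70% and over were 97.7% (88.2 to 99.6) and 88.4% (86.3 to 90.3), and under 50% 8.33% (2.32 to 25.8) and 2.90% (2.495 to 3.37). In both of these bands the intervals overlapped.

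**Figure D3:**
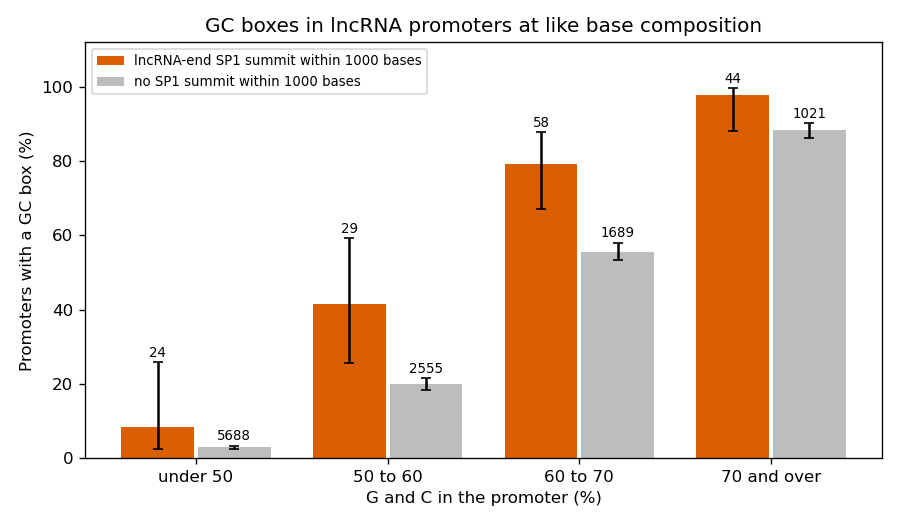
Percentage of lncRNA promoters with at least 1 GGGCGG on either strand (y axis) in bands of G and C content (x axis). Bars on the left of each pair are promoters with a lncRNA-only SP1 summit within 1000 bases and bars on the right those with no SP1 summit; lines are 95% Wilson intervals and the counts written there the number of promoters. At 60% to 70% the shares are 79.3% and 55.7%.

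Read the other way, the share of lncRNA promoters with a lncRNA-only summit was higher where there were more GC boxes. It was 5.31% with 3 or more boxes (3.98 to 7.05), 4.31% with 2, 2.21% with 1 and 0.608% with none (0.464 to 0.796). Protein-coding promoters with any SP1 summit had 22.4%, 19%, 16.3% and 6.61% in the same order. The lncRNA promoters here include starts within 1000 bases of a protein-coding end, where the rule leaves out summits near that end. Without an SP1 summit, 2518 of 10953 lncRNA promoters had a box, and 1428 of 9206 with such starts left out. The rule can thus lower the lncRNA shares most where boxes are many, so their size is not comparable with the protein-coding shares. CCGGAA was found in 23.2% of promoters with a lncRNA-only summit (17.3 to 30.5), against 9.57% of lncRNA promoters without an SP1 summit (9.03 to 10.1). TATAAA, the TATA box, was found in 5.16% (2.64 to 9.85) and 15.7% (15.03 to 16.4) of the same sets. For CCAAT the intervals overlapped, with 40% (32.6 to 47.9) and 34.6% (33.7 to 35.5). All were searched on both strands, and overlap between elements was not removed. Median G and C content was 64.0% in the promoters with a lncRNA-only summit and 49% in those without an SP1 summit. The shares in this paragraph were not compared at like composition.

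The distance from summit to GC box could be read for few promoters. In 30 of the 155 the highest summit fell inside the stretch of 300 bases, and 16 of these had a GC box. Sequence beyond the stretch was not used here, so a nearer box outside it would not be seen. In these 16 the median distance from summit to nearest box was 123.5 bases, with 2 within 50 bases and none within 20 bases. In CRNDE the summit was 51 bases from a box, and in LOC105378691 it was 132 bases away.

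The highest lncRNA-only summit, with a score of 64.0, lay 763 bases from the start of LOC101928626 on chromosome 1 at position 629772. It lay inside the span of a nuclear copy of a mitochondrial gene. An end of MTND2P28 was 132 bases away and an end of MTND1P23 332 bases away, both of them such copies. The nearest H3K27ac summit was 663 bases from this SP1 summit. No other of the 253 had a mitochondrial pseudogene or rRNA gene that close by, at up to 1000 bases. The part of those copies in this score was not tested.

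The next 3 lay close beyond the limit to protein-coding genes. LOC107985317 on chromosome 19 scored 56.5 at 657 bases from its start, inside APLP1, which encodes an amyloid precursor-like protein. It lay 1440 bases from the end of APLP1 that is a listed start site of that gene. LINC02585 scored 35.9 at 251 bases from its start and 1133 bases from an end of CELSR3, a cadherin gene. That end of CELSR3 is likewise a listed start site. C9orf163 scored 35.0 at 140 bases from its start. It lay inside SEC16A, a gene of endoplasmic reticulum exit sites, 1105 bases from an end of it and 148 bases from a start site of SEC16A listed in the promoter table. LOC124904609 scored 25.8 at 64 bases from its start, inside ADAMTSL5 and 3034 bases from an end of it.

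Some high summits had lncRNA genes starting on both sides or shared a start with a transcript of several genes. The summit of SYS1-DBNDD2, a readthrough transcript of the Golgi trafficking gene SYS1 and its neighbour, scored 23 at 93 bases from its start and 106 bases from the start of LOC124904914 on the other strand. That of LINC01144 scored 21.6 at 64 bases and lay 228 bases from the start of LOC105378691 on the other strand, 22921 bases from the nearest protein-coding end. In all, 8 of the 253 lay within 1000 bases of 2 lncRNA starts on opposite strands. LOC105372468 scored 22.8 at 12 bases from its start, inside the zinc finger gene ZSCAN5A, whose antisense gene ZSCAN5A-AS1 starts 315 bases away. This summit also lay 179 bases from a listed start site of ZSCAN5A, and that of SYS1-DBNDD2 106 bases from one of SYS1.

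The remaining genes among the 12 highest were LOC107984262 with 21.3 at 120 bases, the readthrough gene STAG3L5P-PVRIG2P-PILRB with 20.8 at 103 bases, NQO2-AS1 with 20.4 at 381 bases and TPRG1-AS1 with 19.2 at 261 bases. NQO2-AS1, antisense to a quinone reductase gene by its name, was the only one of the 12 at the other end of its gene rather than at the start. It had a second summit of 11.7 at 493 bases from the same end. EML2-AS1, on chromosome 19, had the most summits, 3 with scores of 12.3, 12.2 and 5.71. LOC105372716 had 2, the higher at 13.3.

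Distance to protein-coding genes went with score. The 253 summits lay at a median of 10177 bases from the nearest protein-coding end (quartiles 3735 and 25952). The 39 at 1000 to 2000 bases had a median score of 9.46, the 48 at 2000 to 5000 bases 7.40, the 88 at 5000 to 20000 bases 6.89 and the 59 at 20000 to 100000 bases 5.997. The 19 over 100000 bases away had a median of 4.57. At each of the first 4 distances the lncRNA-only summits had a higher median than summits near neither kind of end, whose medians were 6.93, 5.87, 5.39 and 5.004 in the same order. Over 100000 bases away the median was higher for those near neither, at 5.03, but the lncRNA-only median there rests on 19 summits. Their quartiles were 3.90 and 7.40, against 4.25 and 5.94 for those near neither, so the order is not settled there.

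**Figure D4:**
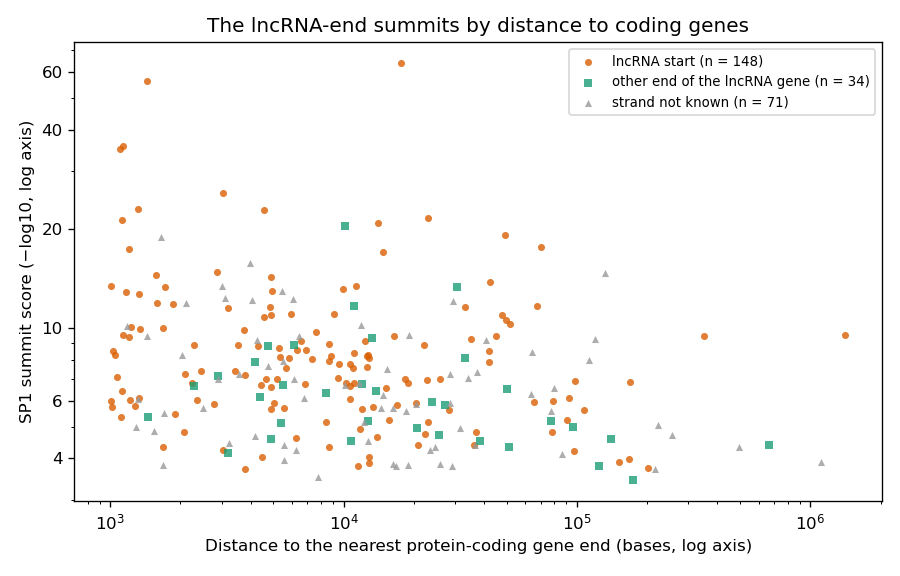
Each point is 1 of the 253 summits, with its distance to the nearest protein-coding gene end (x axis, bases, log axis) and its score (y axis, −log10, log axis). Circles are at lncRNA starts (148), squares at the other end of the gene (34) and triangles where the strand was not known (71). Beyond 100000 bases the median score is 4.57, against 9.46 at 1000 to 2000 bases.

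Many of the summits lay inside or beside protein-coding genes although away from their outer ends. Inside a protein-coding span lay 105 of the 253, or 41.5% (35.6 to 47.7), against 48.2% of summits near neither kind of end (46.4 to 50.01). These 105 had a median score of 7.16, and the 148 outside had 6.81. A start site of a protein-coding gene that does not mark the end of its span was a further neighbour. The promoter table lists such inner starts, and 37 of the 245 summits on its chromosomes were within 1000 bases of one, or 15.1% (11.2 to 20.1). The share was 8.48% for summits near neither kind of end (7.47 to 9.61). The 37 had a median score of 7.86 and the others 6.81.

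Among these 37 were several well-known genes. GATA3-AS1 had a summit of 8.94 at 378 bases from a start of GATA3, a lineage transcription factor. MAPK6-DT had one of 11.0 at 117 bases from a start of the kinase gene MAPK6, and LOC101927932 one of 8.88 at 165 bases from a start of GNAS, which encodes a G protein alpha subunit. PCNA-AS1 had one of 4.57 at 132 bases from a start of PCNA, the replication clamp, and HEXIM2-AS1 one of 4.32 at 11 bases from a start of HEXIM2, a regulator of transcription elongation. The choice of these 5 genes was made with their values in view.

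By kind of symbol, antisense genes had the highest share called, with an interval that lay apart from that of LOC genes and overlapped those of all other kinds. Of 2047 -AS genes, 54 had a lncRNA-only summit, or 2.64% (2.03 to 3.43), against 1.15% of 12385 LOC genes (0.974 to 1.35) and 1.65% of 2309 LINC genes (1.20 to 2.25). Divergent genes had 9 of 592, or 1.52% (0.802 to 2.86). Counting any SP1 summit at an end, 16.7% of -DT genes (13.9 to 19.9) and 8.45% of -AS genes (7.32 to 9.74) were called, against 2.08% of LINC genes (1.57 to 2.75). The rule leaves out summits near a protein-coding end, where -DT genes start by definition.

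**Figure D5:**
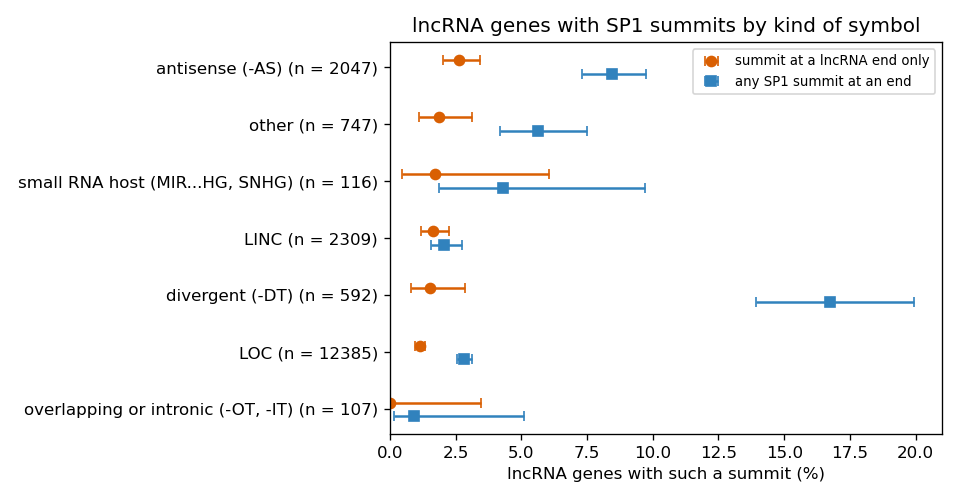
Percentage of lncRNA genes (x axis) with an SP1 summit at an end, by kind of symbol (y axis, with the number of genes). Circles count summits at lncRNA ends only and squares any SP1 summit; bars are 95% Wilson intervals. Antisense genes are at 2.64% and 8.45%, and divergent genes at 1.52% and 16.7%.

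Of 59 pairs of a summit and an -AS gene whose partner was in the table, 44 had the summit inside the partner's span, and 19 had it within 1000 bases of a listed start of the partner. The median distance to an end of the partner was 7333 bases. For -DT genes, 5 of 9 pairs were inside the partner and 3 near a listed start of it. No such share was computed over all -AS or -DT genes. Both kinds are named for their place at the partner, so these counts allow no statement about SP1.

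Each list of known lncRNA genes had at most 1 gene called. Of 34 small nucleolar RNA host genes, 1 had a lncRNA-only summit, EPB41L4A-AS1, host of SNORA13, with 6.78 at 114 bases from its start. Of 20 listed microRNA host genes the only one was MIR31HG, with 4.81 at 667 bases. MIR181A2HG, a microRNA host gene by its symbol, is not on the list and was named with its value in view. It had a summit of 7.95 at 127 bases from an end. Of 12 abundant and nuclear lncRNAs the only one was CRNDE, with summits of 11.8 and 9.92 at 124 and 633 bases upstream of its start. These lay 1855 and 1346 bases from the nearest end of IRX5, a homeobox gene. Of 28 cancer lncRNAs the only one was VPS9D1-AS1, with 10.9 at 140 bases from its start. None of 17 HOX lncRNAs and none of 9 lncRNAs typical of other tissues was called, which by the Wilson interval allows shares of up to 18.4% and 29.9%. Against the 1.42% over all lncRNA genes, lists of this size allow no statement.

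Of the listed hosts, 4 small nucleolar RNA hosts and 2 microRNA hosts had SP1 at an end, and 1 of each kind had a lncRNA-only summit. Over all lncRNA genes, 259 had such a summit and 718 any SP1 summit at an end, so these few hosts allow no statement. The other listed genes with SP1 at an end shared it with a protein-coding neighbour and so fell outside the rule. GAS5 had a summit of 11.3 at 352 bases from an end of ZBTB37, and ZFAS1 one of 8.06 at 309 bases from an end of ZNFX1. SNHG6 had 7.51 with MCMDC2 at 625 bases, and MIR22HG 17.4 with WDR81 at 445 bases. CASC2, from the cancer list, had 6.07 with RAB11FIP2 at 87 bases.

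Genes of small RNAs were neighbours of some summits, and their kinds were looked at with values in view. Within 1000 bases of a small nuclear RNA gene lay 5 of the 253 summits, or 1.98% (0.847 to 4.54), against 11 of all 5570 (0.197%), 2 of 1961 at protein-coding ends only and 4 of 2860 near neither. The 5 summits lay at 4 genes. They were at RNU6-1 (84 bases, score 8.67), RNU6ATAC (148 bases, 8.80), RNU4ATAC (610 bases, 9.23) and RNU2-63P, which had 2 summits at 28 and 658 bases with 6.63 and 3.79. RNU6-1 encodes U6, and RNU4ATAC and RNU6ATAC encode RNAs of the minor spliceosome. Small nucleolar RNA genes were near 2 of the 253 (0.791%, interval 0.217 to 2.84) and 0.180% of all SP1 summits, among them SNORD118, which encodes U8, at 101 bases from a summit of 10.1. Transfer RNA genes were near 3 (1.19%, 0.404 to 3.43), against 0.718% of all SP1 summits. MicroRNA genes were near 2 (0.791%), against 0.646% of all. For these 3 kinds the intervals overlapped those of all SP1 summits. MIR212 lay 17 bases and MIR132 280 bases from a summit of 11.6.

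H3K27ac was seldom called at the same places. Of the 3201 H3K27ac summits, 2946 (92.0%) lay near neither kind of gene end, so few were called at gene ends of any kind. Whether ends without such a summit lacked the acetylation was not tested. An H3K27ac summit lay within 500 bases of 3 of the 253, or 1.19% (0.404 to 3.43), against 2.41% of all SP1 summits, 0.816% at protein-coding ends only (0.503 to 1.32) and 3.92% near neither (3.26 to 4.69). HCG27, a lncRNA gene of the major histocompatibility region, had an SP1 score of 8.11 with H3K27ac summits of 4.05 and 4.83 at 14 and 397 bases. LOC124906238 had 6.01 with 4.63 at 285 bases, and LOC102723786 had 4.95 with 6.54 at 225 bases. Only the HCG27 summit lay in a deposited H3K27ac region, as did 1.58% of all SP1 summits. Within 10000 bases an H3K27ac summit was found for 7.51% of the 253 (4.86 to 11.4), against 7.62% near neither kind of end (6.71 to 8.65), 3.57% at protein-coding ends only (2.84 to 4.49) and 5.67% of all SP1 summits.

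By the same rule 105 of 3201 H3K27ac summits were at lncRNA-only ends, at 104 lncRNA genes (0.568%). Their median score was 5.09, close to the 5.01 of the whole H3K27ac list. The highest were on chromosome 18 at DLGAP1-AS6 with 13.6 and DLGAP1-AS2 with 11.0, and neither had an SP1 summit within 500 bases.

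The authors' ranked SP1 regions held 71 of the 253, or 28.1% (22.9 to 33.9), against 44.1% of all SP1 summits. The share was 3.21% at protein-coding ends only and 81.0% near neither. Within the 253 it was 11.5% at lncRNA starts (7.30 to 17.6) and 73.5% at other ends (56.9 to 85.4). Of the 37 near a listed protein-coding start site, 0 lay in a region. Near neither kind of end the share was 18.5% at 1000 to 2000 bases from a protein-coding end and 67.6% at 2000 to 5000 bases. Whether the choice of regions made the contrast between starts and other ends was not tested. The 71 lay in 70 regions with ranks from 42 to 2307, and 18 of these regions were among the best-ranked 235.

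Chromosome 19 held 30 of the 253, or 11.9% (8.43 to 16.4), beside 11.3% of all SP1 summits and 2.67% of lncRNA genes. There were 6.13 lncRNA-only summits per 100 lncRNA genes on chromosome 19. On chromosome 20 there were 2.60, on chromosome 17 2.51 and on chromosome 13 0.316, and none was called on chromosomes 21 and Y. SP1 summits of any kind numbered only 52 on chromosome 13, of which 2 were lncRNA-only, 38 on chromosome 21 and 3 on Y. The 30 on chromosome 19 had a median score of 7.61 and the 223 on other chromosomes 6.81. The nearest lncRNA-only summit to RGS20, the gene named in the title of the series, was 44705823 bases away on chromosome 8, at PPP1R3B-AS1 with a score of 3.95.

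The limits of the rule cut through a continuous range. The summits just inside the limit to lncRNA ends were at THUMPD3-AS1, LOC101927882 and SKOR1-AS1, at 996, 981 and 976 bases with scores of 5.34, 6.72 and 8.67. Those just outside were near ZNF213-AS1, LOC105375257 and LOC124904923, at 1017, 1019 and 1035 bases with 21.9, 3.92 and 4.09. Just beyond the limit to protein-coding ends were DMTF1-AS1, LOC124904724 and NOP14-AS1, at 1009, 1012 and 1019 bases with 5.98, 13.4 and 5.76. Left out on the other side were LOC105373244, LOC118567325 and BSG-AS1, at 985, 981 and 972 bases with 5.03, 12.2 and 5.84.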

How the data were processed

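The authors deposited, for the SP1 and H3K27ac libraries, a list of summits with a score (−log10 of either a p-value or a q-value) and a list of ranked regions whose score column is the rank within the list. Which of p and q is meant is not given in the sources used here, nor are the aligner, the peak caller, its control or any pooling. Per the submitters' processing notes, the build was hg38 and the tools included deepTools 3.4.1 and cutadapt 2.5. Depth is unknown, so no floor was computed.

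Distances were taken from each summit to RefSeq gene spans (GRCh38.p14) on 24 chromosomes. Strand, start sites and sequence came from RefSeq promoter entries, which matched 11462 of 18303 lncRNA genes and cover 23 chromosomes. For 96.5% of these genes the outermost start was the end of the span. Chromosome length ran from the first to the last gene or summit. Intervals are 95% Wilson (shares), exact Poisson (densities) or binomial on the ranked scores (median score), and treat summits as independent. The calculations were tested on simulated data. Python 3.11.15, pandas 2.3.3 and scipy 1.17.1 were used.

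The members and lists were chosen with earlier results of these data known. Named genes are those of the 12 highest summits, up to 4 per list, those with H3K27ac within 500 bases, the 3 nearest each side of each limit, the 3 genes with most summits and the one nearest RGS20. Others are marked or stand for a count.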

Additional observations from a re-analysis of the deposited data

How the results depend on the processing

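Of 84 alternative values, 36 moved. Shares, medians and folds that moved lay outside the interval of the value as reported. Counts, shares, medians and folds have no sign, so most of these values could not reverse. A change of sign was possible only in the median score minus that at all protein-coding ends. This difference stayed negative, from -1.41 to -0.75. Its interval is that of the lncRNA-only median with the median at protein-coding ends held fixed, so it leaves out the counting error of the latter. It reached up to 0.107 for summits above the upper quartile and 0.0116 without LOC genes, so the sign is not settled there. With windows of 500 bases, 18.5% of lncRNA-only summits lay in SP1 regions (28.1% as reported) and their density was 3.84-fold that of all positions (2.21-fold as reported). With 2000 bases these were 37.3% and 1.33-fold, and 73.8% lay at starts (81.3% as reported). With protein-coding ends over 5000 bases away, 166 summits (2.98%) were left, 35.5% inside protein-coding spans (41.5% as reported), at 1.67-fold density. Above the median score, 152 summits (5.46%) at 160 genes had a median of 8.88, with 22.4% in SP1 regions, 86.3% at starts and 2.66-fold density. Above the upper quartile, 74 summits (5.31%) at 79 genes had a median of 11.9, with 13.5% in SP1 regions, 51.4% inside protein-coding spans, 92.9% at starts, 2.59-fold density and 0% with H3K27ac within 500 bases. Without LOC genes, 120 summits (2.15%) at 117 genes had 17.5% in SP1 regions and 3.37-fold density. In a further alternative, chosen after seeing the data, summits at protein-coding start sites were left out. This gave a share of 6.53%, 3.18-fold density and 31.5% inside protein-coding spans. The median score minus that at all protein-coding ends was -0.75 (-1.20 with those summits kept). On the chromosomes with promoter entries this filter took 37 of 245 lncRNA-only summits and 2261 of all 5240. The length in the windows stayed the same, so the share and the fold rose by construction. H3K27ac within 2000 bases was found for 3.95%, and 2 or more GC boxes in 45.8% of promoters. Stricter rules leave fewer summits by construction, and otherwise the cause was not tested. No paired analysis was possible because each antibody had 1 library. No replicate, control signal or depth was at hand, so how many binding sites were missed cannot be stated.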
